A study of Mus musculus with 12 samples.

Results

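The line with knockdown of PRMT8 was compared with the scrambled line by gene expression in neurons grown from D3, an embryonic stem cell line of the mouse. The members are 6 of the 12 arrays of the series, the 3 whose titles name siPRMT8 and the 3 whose titles name siSCR, read across 19938 genes with a single symbol. Both lines were made from D3 and carried either a construct against PRMT8 or a scrambled, non-targeting sequence. The sample titles name no other treatment and do not describe the culture medium. Both lines were harvested on day 16 of a differentiation that passes through embryoid bodies, cell aggregates formed without the self-renewal factor LIF. The unmodified D3 cells and the line with knockdown of PRMT1 (siPRMT1), with 3 arrays each, served for reference. Their arrays also entered the shared estimate of spread behind the p-values and the means used to leave out low genes. Each group is 1 line, so the knockdown and the history of its line cannot be told apart, and nothing in the labels ties the replicates to separate differentiations. P-values therefore measure the spread between these cultures. Each array read the RNA of a whole culture, so fewer cells of a type and less RNA per cell cannot be told apart.

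Protein arginine methyltransferases add methyl groups to arginine residues of histones, RNA-binding proteins and other targets. PRMT1 makes most of the asymmetric dimethylarginine of mammalian cells and is expressed in nearly all of them. PRMT8 is its closest relative, is held at the plasma membrane by a lipid anchor and is found mainly in neurons. During neuronal differentiation of stem cells, genes of pluripotency and of early neural progenitors are silenced while genes of axons, synapses and ion channels are induced. Retinoic acid, which is used in many such protocols, also induces Hox genes, which mark positions along the body axis.

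All values are the deposited log2 array values, so a difference of 1 is a 2-fold change, and levels of different genes are not comparable. Array medians agreed to within 0.023, and the number of arrays (12) limits the precision of every value. After the lowest 25% of genes by mean value were left out, 14953 genes were tested with limma, and a gene passed at an adjusted p (Benjamini-Hochberg) under 0.05. In siPRMT8 against siSCR 3565 of 14953 genes passed, or 23.8%, with 1595 higher (10.7%) and 1970 lower (13.2%). The 2 groups of arrays did not overlap in 6248 genes (41.8%). The lower changes were larger, with a median size of 0.47 on the log2 scale against 0.32 for the higher ones, and 230 genes lay at least 2-fold lower against 34 higher. The share of higher genes among those that passed depended on the scaling. It was 44.7% with the values as deposited, 56.0% after quantile normalisation and 62.8% when each array was centred on its median. Both scalings were made on the 14953 tested genes, not on all probe sets.

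Prmt8, the targeted gene, read 6.60, 7.18 and 7.10 in siSCR and 6.44, 6.17 and 6.44 in siPRMT8. All 3 siPRMT8 arrays lay below all 3 siSCR arrays, but siSCR replicate 1 was only 0.16 above the nearest of them. The fall was 0.61 on the log2 scale (SE 0.157, 1.53-fold, limma adjusted p = 0.0171, n = 3 per group). It no longer passed without siSCR replicate 2 (-0.50, adjusted p = 0.0728), without siSCR replicate 3 (-0.54, adjusted p = 0.0712) or without siPRMT8 replicate 2 (-0.52, adjusted p = 0.0599), and was larger without siSCR replicate 1 (-0.79, adjusted p = 0.00134). In siPRMT1 Prmt8 read 6.35, 6.89 and 6.67, and the difference between the 2 knockdown lines did not pass (-0.29, SE 0.157, adjusted p = 0.489). Prmt1 read 8.84, 8.74 and 8.86 in siSCR and 9.27, 9.20 and 9.27 in siPRMT8. It rose by 0.43 (SE 0.0885, 1.34-fold, adjusted p = 0.00625) and passed whichever of the 6 arrays was left out. None of the other 7 family members measured passed. The share of the 9 members that passed was 22.2%, near the 23.8% of all genes. Prmt2, shown because it came nearest to the threshold, was at -0.33 (SE 0.114, adjusted p = 0.055), with siSCR values of 7.63, 8.08 and 8.00 and siPRMT8 values of 7.46, 7.58 and 7.68.

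**Figure D1:**
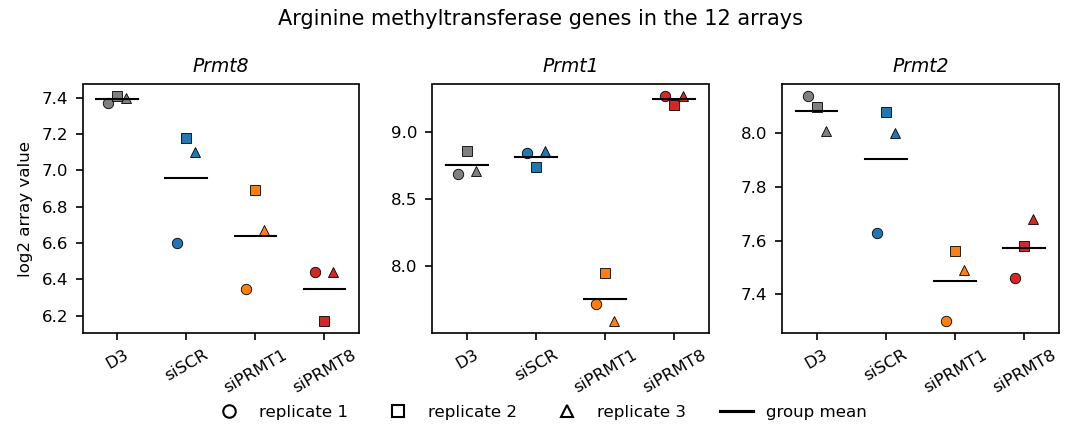
Log2 array values (vertical axis, a separate scale for each gene) of Prmt8, Prmt1 and Prmt2 in the 12 arrays by group, with circles, squares and triangles for replicates 1, 2 and 3 and a line at the group mean. The group mean of Prmt8 is lowest in siPRMT8, but siPRMT1 replicate 1 (6.35) lies below 2 of the 3 siPRMT8 arrays and siSCR replicate 1 close above them, whereas the 3 siPRMT8 values of Prmt1 (9.20 to 9.27) stand above every other array.

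One siSCR array stood between the groups. On the first principal component, which held 61.4% of the variance, siSCR replicates 2 and 3 lay at -26.2 and -22.2, the siPRMT8 arrays at 13.6 to 23.7, and siSCR replicate 1 at 0.105. To show it apart, siPRMT8 was compared with siSCR replicates 2 and 3 alone, where 4107 of 14953 genes passed (27.5%), 1884 higher and 2223 lower. Of these, 3157 had also passed with all 3 siSCR arrays. The position of siSCR replicate 1 was then measured for each of the 4107 genes, with 0% at the mean of the other siSCR arrays and 100% at the siPRMT8 mean. Its median position was 50.6% (quartiles 22.2% and 75%), and it lay nearer to siPRMT8 in 2084 genes (50.7%). The displacement was uneven. Its median was 40.1% for the genes higher in siPRMT8 and 59.2% for the lower ones. The 4107 genes were chosen against the other siSCR arrays, so these positions describe replicate 1 and carry no test.

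**Figure D2:**
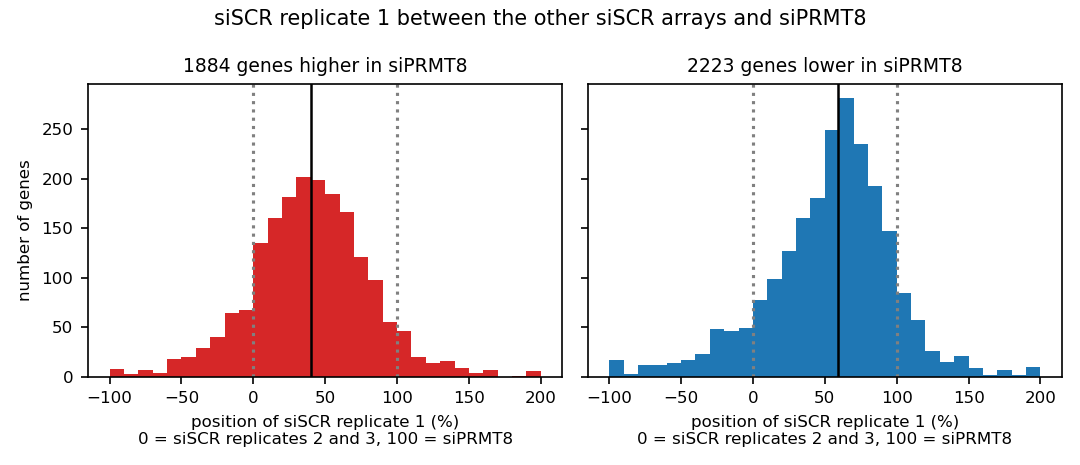
Number of genes (vertical axis) by the position of siSCR replicate 1 in percent (horizontal axis, 0 at the mean of siSCR replicates 2 and 3 and 100 at the siPRMT8 mean, both dotted, with positions beyond -100 or 200 drawn at the ends) for the 1884 genes higher and the 2223 genes lower in siPRMT8 without that array. Solid lines mark the medians, 40.1% and 59.2%, so replicate 1 lay further towards siPRMT8 in the lower genes.

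Most genes of mature neurons that were listed lay lower in siPRMT8. In the pan-neuronal, synaptic, receptor and channel lists 58.8% to 84.6% of genes passed, beside 23.8% of all genes. Of 30 pan-neuronal genes 22 fell and 1 rose, with a median of -0.80 against a median of 0.01 over all 14953 genes. The mean of these 30 genes read 8.42, 9.25 and 9.20 in the siSCR arrays and 8.11, 8.35 and 8.20 in siPRMT8, so siSCR replicate 1 lay nearest to the siPRMT8 arrays. The axonal adhesion molecule L1cam read 7.90, 8.78 and 8.73 in siSCR and 6.62, 7.07 and 6.76 in siPRMT8. It fell 3.15-fold (log2 -1.65, SE 0.203, adjusted p = 0.000755). Mapt, the microtubule-associated protein tau, read 7.82, 9.14 and 9.08 against 6.91, 7.37 and 7.19 and fell by 1.52 (SE 0.275, adjusted p = 0.00326). The exception was the neurofilament gene Nefm, at 6.21, 7.01 and 6.84 in siSCR and 7.78, 7.65 and 7.85 in siPRMT8. It rose by 1.08 (SE 0.268, adjusted p = 0.0147), but did not pass without siPRMT8 replicate 3 (adjusted p = 0.0566) or against D3 (0.41, adjusted p = 0.285). The 22 lower genes were 28 without siSCR replicate 1 and 15 without siSCR replicate 3. Not every neuronal marker passed. Tubb3, the neuronal tubulin used as a standard marker and named here after its values were seen, was at -0.31 (SE 0.328, adjusted p = 0.537), with siSCR replicate 1 at 7.47, below all siPRMT8 arrays (7.95, 8.14 and 8.10).

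Genes of the presynaptic terminal fell with few exceptions. Of 25 synaptic vesicle and release genes 20 fell and 0 rose (median -0.83), a count that was 13 without siSCR replicate 3. Sv2a, a glycoprotein of synaptic vesicles, read 8.09, 8.97 and 8.92 in siSCR and 6.94, 7.30 and 6.97 in siPRMT8, a 3.01-fold fall (log2 -1.59, SE 0.206, adjusted p = 0.000953). The vesicle GTPase Rab3c fell by 1.58 and the vesicle protein Syt4 by 1.56. On the postsynaptic side 15 of 27 scaffold and adhesion genes fell and 1 rose (median -0.49). Dlg2, a scaffold of the postsynaptic density, read 6.80, 8.15 and 7.58 against 5.67, 6.23 and 5.76 and fell by 1.62 (SE 0.28, adjusted p = 0.00272). The synaptic adhesion molecules Lrrtm2 (-1.53) and Nlgn1 (-1.31) fell with it. The riser, Homer2 (0.24), passed without siPRMT8 replicate 2 but in none of the other 5 comparisons with an array left out (adjusted p up to 0.149), and averaging its 2 probe sets gave 0.10 (adjusted p = 0.485).

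Receptors for the main transmitters were lower as well. Of 20 glutamatergic genes 12 fell and 1 rose (median -0.80). Cacng3, an auxiliary subunit that carries AMPA receptors to the synapse, had the largest fall among them, from 6.47, 7.93 and 8.01 in siSCR to 4.81, 5.18 and 4.71 in siPRMT8 (5.94-fold, log2 -2.57, SE 0.342, adjusted p = 0.00103). These siPRMT8 values all lie under 5.43, the low-value filter, which Cacng3 passed through the siSCR and D3 arrays. The metabotropic receptor Grm5 fell by 1.87 (SE 0.29) and the AMPA receptor subunit Gria2 by 1.68 (SE 0.279). The 12 were 7 without siPRMT8 replicate 1, siPRMT8 replicate 3 or siSCR replicate 2, and 6 without siSCR replicate 3. Of 17 GABAergic and interneuron genes 10 fell and 0 rose (median -0.60), among them Reln, a secreted glycoprotein (-1.50, SE 0.289), and the GABA-B receptor subunit Gabbr2 (-1.18, SE 0.2). These 10 were 6 without siPRMT8 replicate 1, 5 without siSCR replicate 2, and 4 without siSCR replicate 3 or siPRMT8 replicate 3.

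The ion channels of excitable cells were lower too. Of 17 voltage-gated sodium and potassium channel genes 11 fell and 1 rose (median -0.59), and of 13 calcium channel genes 11 fell and 0 rose (median -0.56). Scn3b, a sodium channel subunit, read 8.66, 9.64 and 9.61 in siSCR and 7.34, 8.02 and 7.68 in siPRMT8 (-1.62, SE 0.277, adjusted p = 0.0026). The calcium channel subunits Cacnb4 (-1.43, SE 0.272) and Cacna1e (-1.11, SE 0.164) fell in every comparison with 1 array left out. Scn2a fell by 1.74 at its brightest probe set and by 1.44 over the mean of its 14 probe sets. Kcnj3, an inwardly rectifying potassium channel opened by G proteins, went the other way, from 6.75, 7.16 and 7.26 to 8.12, 7.78 and 8.21 (0.98, SE 0.174, adjusted p = 0.00304). The 11 sodium and potassium channel genes were 6 without siPRMT8 replicate 3 or siSCR replicate 3 and 7 without siSCR replicate 2, while the calcium channel count stayed within 1.5 times of 11.

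Secreted peptides and guidance molecules did not move as one. Trh, the precursor of thyrotropin-releasing hormone, read 9.73, 9.18 and 9.45 in siSCR and 11.11, 10.93 and 11.14 in siPRMT8. It rose 3.05-fold (log2 1.61, SE 0.182, adjusted p = 0.000511), whereas 5 of the 14 neuropeptide genes fell, led by Penk, the enkephalin precursor (-0.87, SE 0.188). Of the 14, 42.9% passed in either direction, beside 23.8% of all genes. Penk passed in all 6 comparisons with an array left out. Those 5 were 1 without siPRMT8 replicate 1 or 3 or siSCR replicate 2 or 3, 3 without siPRMT8 replicate 2, and 9 without siSCR replicate 1. Of 33 axon guidance genes 5 rose and 14 fell (57.6%, median -0.23). The receptor tyrosine kinase Epha7 (1.15, SE 0.208) and the ephrin ligand Efnb2 (0.67, SE 0.135) rose. The semaphorin co-receptors Plxna4 (-1.23) and Nrp1 (-0.90) and the Slit receptor Robo2 (-1.04) fell. The 14 were 6 to 9 when any array other than siSCR replicate 1 was left out, and the 5 were 3 without siPRMT8 replicate 3.

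The neuronal lists had shifted in the same direction in siSCR replicate 1. Relative to siSCR replicates 2 and 3 their medians there were -0.77 for pan-neuronal, -0.69 for synaptic vesicle, -0.61 for postsynaptic, -0.88 for glutamatergic and -0.63 for GABAergic genes. They were -0.59 for sodium and potassium channels and -0.42 for calcium channels. Against siSCR replicates 2 and 3 alone, the medians in siPRMT8 were -1.07 for pan-neuronal, -1.08 for synaptic vesicle and -1.10 for glutamatergic genes. Against D3, where 4135 of all 14953 genes passed (27.7%), 27 of 30 pan-neuronal and 20 of 25 synaptic vesicle genes were lower in siPRMT8. What set siSCR replicate 1 apart was not tested.

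Hox genes fell in nearly all cases. Of 24 tested, 20 fell and 0 rose (83.3%, beside 23.8% of all genes), with a median of -0.85. The count was 20 whichever of the 6 arrays was left out, with quantile normalisation, with median centring and against D3. Hoxc5 read 6.34, 7.14 and 7.01 in siSCR and 5.49, 5.29 and 5.15 in siPRMT8 (2.87-fold lower, log2 -1.52, SE 0.179, adjusted p = 0.000624). The siPRMT8 mean of Hoxc5 (5.31) lay under the low-value filter of 5.43, which the gene passed through the siSCR and D3 arrays (means 6.83 and 6.14). Hoxc8 read 7.38, 8.30 and 7.90 against 6.38, 6.33 and 6.37 and fell 2.84-fold (SE 0.168 on the log2 scale). Hoxc6 fell by 1.42 (SE 0.164). Even the displaced siSCR replicate 1 lay above every siPRMT8 array for these 3 genes. The 4 members that did not pass, named after their values were seen, were Hoxa2, Hoxa9, Hoxb1 and Hoxd9. Against D3 the Hox median was -0.64, and Hoxc5 was at -0.83 and Hoxc8 at -0.91.

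Genes of the retinoic acid pathway, which lies upstream of Hox genes in development, were split. Of 23 tested, 5 rose and 5 fell (43.5%, beside 23.8% of all genes, median 0.09). Crabp2 and Crabp1, which bind retinoic acid inside the cell, rose. Crabp2 read 7.23, 6.72 and 6.45 in siSCR and 8.78, 8.69 and 9.03 in siPRMT8 (4.10-fold, log2 2.04, SE 0.307, adjusted p = 0.00154, and 1.14 against D3), and Crabp1 rose by 0.99 (SE 0.169). Cyp26b1, which degrades retinoic acid, rose by 0.88 (SE 0.143, adjusted p = 0.00212). Tgm2, a transglutaminase induced by retinoic acid, fell by 0.80 (SE 0.113), and Stra6, a receptor for retinol uptake, by 0.33 (SE 0.0715). The 5 lower genes were 3 without siPRMT8 replicate 1, siPRMT8 replicate 3 or siSCR replicate 3.

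Patterning genes were split as well. Of 24 hedgehog and dorsoventral patterning genes 10 rose and 6 fell (66.7%, beside 23.8% of all genes, median 0.01). The ligand Shh, which patterns the ventral neural tube, read 8.30, 8.00 and 7.94 in siSCR and 7.03, 7.11 and 7.22 in siPRMT8 (-0.96, SE 0.0935, adjusted p = 0.000345). Its inhibitor and target Hhip (-0.99, SE 0.131) and the ventral progenitor factor Olig2 (-0.90, SE 0.17) also fell. Pax3, a factor of the dorsal neural tube and neural crest, rose from 6.71, 6.85 and 6.74 to 8.54, 8.32 and 8.60 (3.30-fold, log2 1.72, SE 0.253, adjusted p = 0.00139, and 0.80 against D3). Gli3, which acts mainly as a repressor of hedgehog targets, rose by 0.95 (SE 0.198), and Wnt1, a signal of the dorsal midline, by 1.22 (SE 0.178). The siSCR values of Wnt1 (5.29, 5.24 and 5.20) all lay under the low-value filter of 5.43, which the gene passed through the other groups. The 10 higher genes were 6 without siPRMT8 replicate 1 or 3. Against D3, where 27.7% of all genes passed, 6 rose and 6 fell.

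Neurogenic and progenitor genes were mixed. Neurod4, a proneural transcription factor, rose from 6.14, 6.57 and 6.33 in siSCR to 7.74, 7.76 and 7.94 in siPRMT8 (2.77-fold, log2 1.47, SE 0.258, adjusted p = 0.00291). Against D3 it lay at 0.38 and did not pass (adjusted p = 0.31). Nhlh1, expressed in newborn neurons, rose by 1.05 (SE 0.214) against siSCR but lay at -0.09 against D3. Myt1l, a factor that holds neuronal identity, fell by 1.32 (SE 0.272). Of 18 proneural genes 4 rose and 3 fell against siSCR (38.9%, beside 23.8% of all genes). Against D3, where 27.7% of all genes passed, 0 rose and 7 fell. Of 20 neural progenitor and radial glia genes 4 rose and 5 fell (45.0%, median -0.02, and 0.04 with median centring). The stem cell surface protein Prom1 rose by 0.64 (SE 0.0979), and Ptprz1 (-0.92), Ttyh1 (-0.90) and the glutamate transporter Slc1a3 (-0.74) fell. The 4 higher progenitor genes were 2 without siPRMT8 replicate 1 or 3 or siSCR replicate 2 or 3. Of 20 Notch pathway genes 4 rose and 3 fell (35.0%, beside 23.8% of all genes). Notch1 fell by 0.44 (SE 0.0624) and the inhibitor Numbl by 0.40 (SE 0.0786). The 4 Notch pathway genes that rose were 0 without siPRMT8 replicate 1 or siSCR replicate 3 and 1 without any other of these arrays.

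Some cell cycle genes and most of the listed RNA-binding protein genes rose by small amounts. Of 31 cell cycle genes 9 rose (29.0%, beside 23.8% of all genes in either direction), 0 fell and 22 did not pass, with a median of 0.21. Those that rose included Tyms, which makes thymidylate for DNA synthesis (0.66, SE 0.129), cyclin E2, Ccne2 (0.61, SE 0.121), and the kinetochore motor Cenpe (0.54, SE 0.0855). The count was 4 without siPRMT8 replicate 1, siPRMT8 replicate 3 or siSCR replicate 3, 5 without siPRMT8 replicate 2, and 19 with median centring. Of 20 genes for FET family and other RNA-binding proteins, a class that holds many arginine-methylated proteins, 12 rose and 1 fell (65.0%, median 0.20). Alyref, an mRNA export factor, read 10.94, 10.87 and 10.94 in siSCR and 11.32, 11.21 and 11.27 in siPRMT8 (0.35, SE 0.0734, adjusted p = 0.00669), and the paraspeckle protein Nono rose by 0.30 (SE 0.0566). The member that fell was Hnrnpul1 (-0.27, SE 0.059). The 12 were 6 without siPRMT8 replicate 1, 5 without siSCR replicate 2, and 3 without siPRMT8 replicate 3 or siSCR replicate 3. These are differences in transcript level, and methylation of the proteins was not measured.

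Of 25 pluripotency and early stem cell genes 3 rose and 3 fell (median -0.30), a share of 24.0% that is close to the 23.8% of all genes. The risers were Dnmt3b, a de novo DNA methyltransferase, and the let-7 inhibitors Lin28a and Lin28b. Dnmt3b read 7.98, 7.67 and 7.77 in siSCR and 9.11, 8.60 and 8.98 in siPRMT8 (2.13-fold, log2 1.09, SE 0.146, adjusted p = 0.00106). Lin28a rose by 0.88 (SE 0.192) and Lin28b by 0.86 (SE 0.0965), and these 3 passed whichever array was left out. Dnmt3l, a cofactor of de novo methylation, had the largest fall, from 9.46, 9.13 and 8.83 to 6.55, 8.08 and 6.61 (-2.06, SE 0.689, adjusted p = 0.0487). It passed only without siPRMT8 replicate 2 (adjusted p 0.0923 to 0.156 in the other 5 cases), and the germ cell gene Dazl (-2.14, SE 0.552, adjusted p = 0.017) did not pass without siSCR replicate 2 (0.0546), siPRMT8 replicate 1 (0.0613) or siPRMT8 replicate 3 (0.066). For both genes siPRMT8 replicate 2 lay highest of its group. The 3 lower list members were 0 without siPRMT8 replicate 3 and 1 without any other array but siPRMT8 replicate 2. Against D3, where 27.7% of all genes passed, 7 list members rose and 1 fell.

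A group of microRNA genes of stem cells and proliferating cells rose beside these. The naming rule did not cover microRNA genes, and those described here were chosen after their values were seen. Of 136 tested microRNA gene symbols 12 rose and 4 fell, or 11.8%, less than the 23.8% over all genes. Of the 12 that rose, the 5 hairpin genes Mir302d, Mir18, Mir19a, Mir19b-1 and Mir363 lie in 3 clusters. These are the miR-302 cluster that is known for its expression in pluripotent cells, and the related miR-17 and miR-106a clusters. The other symbols that rose are not hairpins of these clusters, and most are not described. The probe sets read hairpin or host transcript, not mature microRNA, whose levels were not measured. The mature sequences of the arm usually described as active are shown, where RefSeq (GRCm38.p6) gives it, because seeds (bases 2 to 8, in capitals) recur within and between the clusters. The first set comes from the miR-302 cluster at chr3:127545228-127545807, plus strand, and holds a seed shared by miR-302b and miR-302d.
miR-302b-3p: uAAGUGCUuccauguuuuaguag
miR-302d-3p: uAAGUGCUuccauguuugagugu
miR-302c-3p: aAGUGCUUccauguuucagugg
The second set holds the seed shared within the miR-17 cluster (chr14:115043671-115044506, plus strand) and the miR-106a cluster (chrX:52741693-52742567, minus strand), the seed of miR-18a, and the seed of miR-19.
miR-17-5p: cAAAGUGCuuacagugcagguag
miR-20a-5p: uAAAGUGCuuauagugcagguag
miR-106a-5p: cAAAGUGCuaacagugcagguag
miR-20b-5p: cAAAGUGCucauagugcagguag
miR-18a-5p: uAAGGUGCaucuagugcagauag
miR-19a-3p: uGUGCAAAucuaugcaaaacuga
miR-19b-3p: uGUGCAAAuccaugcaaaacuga
The next set holds a seed common to all 3 clusters.
miR-367-3p: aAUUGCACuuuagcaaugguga
miR-363-3p: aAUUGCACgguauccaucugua
miR-92a-3p: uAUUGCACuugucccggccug

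Mir302d read 4.13, 4.40 and 4.60 in siSCR and 7.78, 6.43 and 8.01 in siPRMT8, and the groups did not overlap. Its siSCR and D3 values all lay under the low-value filter of 5.43, which the gene passed only through the knockdown arrays, where it is high. The other 4 hairpins of the cluster fell below the filter. The cluster was therefore read from a fit of all 19938 genes, which has no such filter and in which 16.0% passed. In that fit Mir302d rose 8.17-fold (log2 3.03, SE 0.429, adjusted p = 0.00152). Mir302a rose from 3.32, 3.04 and 3.56 to 7.08, 5.47 and 7.30 (log2 3.31, SE 0.535, adjusted p = 0.00253). Mir302c rose from 3.91, 3.39 and 3.42 to 7.21, 5.64 and 7.46, and Mir302b from 2.34, 2.59 and 2.77 to 5.61, 4.32 and 5.85. Mir367, with the seed common to all 3 clusters, rose from 2.44, 2.23 and 2.13 to 4.53, 3.36 and 4.96 (log2 2.02, SE 0.363, adjusted p = 0.00399). At all 5 hairpins siPRMT8 replicate 2 was the lowest siPRMT8 array and still lay above every siSCR array, and siSCR replicate 1 lay with the other siSCR arrays. The siPRMT1 arrays were spread between the groups, with Mir302d at 5.48, 7.21 and 5.87, and in the fit of all genes the difference of 1.22 between siPRMT8 and siPRMT1 did not pass (SE 0.429, adjusted p = 0.366). RefSeq places the cluster within the span of Larp7, a gene for an RNA-binding protein, which read 8.59, 8.18 and 8.24 in siSCR and 8.91, 8.73 and 9.07 in siPRMT8 and rose by 0.57 (SE 0.116, adjusted p = 0.00581). Whether its transcript adds to the hairpins' values was not tested.

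In the miR-17 cluster the rises were smaller and more even. Mir18 read 6.87, 6.83 and 6.68 in siSCR and 7.63, 7.58 and 7.95 in siPRMT8 (1.90-fold, log2 0.93, SE 0.106, adjusted p = 0.000558). Mir19b-1 rose by 0.95 (SE 0.135). Both passed whichever of the 6 arrays was left out. Mir19a and Mir363 also lay under 5.43 on average in siSCR and D3 and passed the filter through the knockdown arrays, so their values are from the fit of all genes, where Mir19a rose by 0.92 (SE 0.117, adjusted p = 0.001). The host transcript Mir17hg read 6.97, 6.81 and 6.85 against 7.76, 7.59 and 7.97 and rose by 0.90 (SE 0.139, adjusted p = 0.00171), close to its hairpins. In the miR-106a cluster Mir363 read 5.07, 5.22 and 5.61 against 7.06, 6.64 and 7.19 and rose 3.17-fold (log2 1.67, SE 0.183, adjusted p = 0.000594). Of the other hairpins on the array, all below the filter, Mir17, Mir20a, Mir106a, Mir19b-2 and Mir92-2 passed in the fit of all genes with rises of 0.51 to 0.90, and Mir20b was at 0.49 (adjusted p = 0.0883). Mir9-1, a hairpin of a neural microRNA, fell by 0.48 (SE 0.108, adjusted p = 0.00911).

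**Figure D3:**
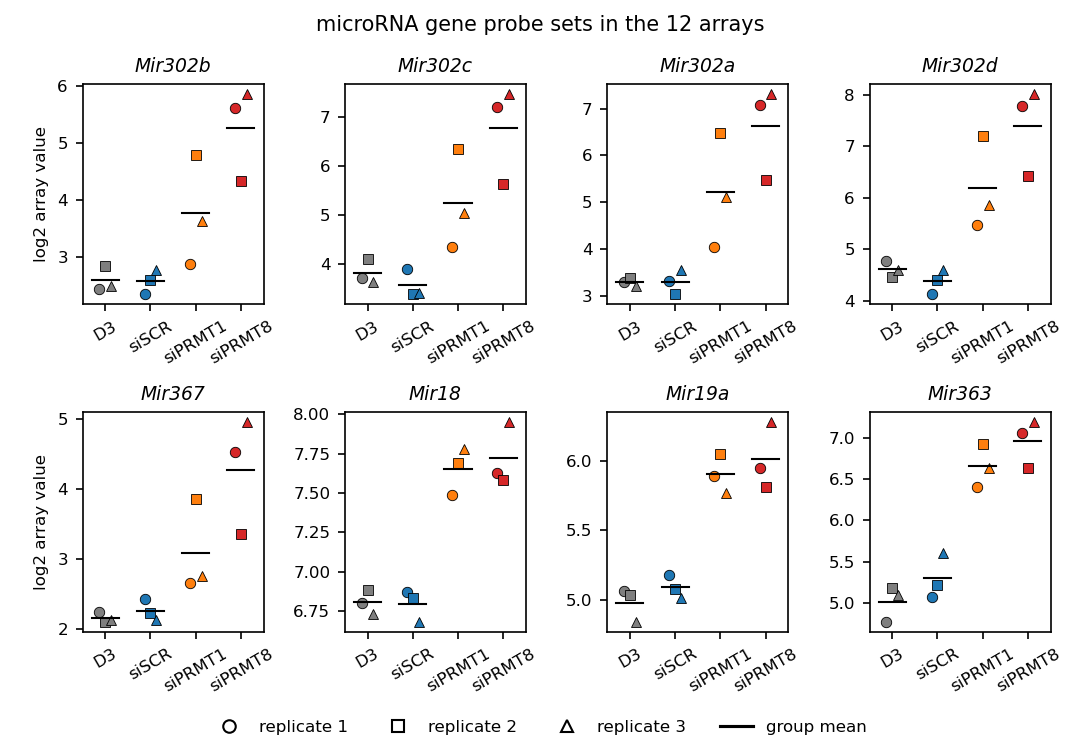
Log2 array values (vertical axis, a separate scale for each gene) of 8 microRNA gene probe sets in the 12 arrays by group, with circles, squares and triangles for replicates 1, 2 and 3 and a line at the group mean. All siPRMT8 values lie above all siSCR and D3 values, the 3 siSCR arrays lie together, and the siPRMT1 arrays spread widely for Mir302a to Mir302d.

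In genes whose 3 siSCR arrays spanned at most 0.3, siSCR replicate 1 lay with the other siSCR arrays. There were 11431 such genes, of which 2304 passed (20.2%), 1369 higher and 935 lower. The limit on the span removes genes in which siSCR replicate 1 lay towards siPRMT8, which it did further for lower than for higher genes, so nothing is read from this split. Fndc3c1, a fibronectin type III domain gene, read 7.42, 7.29 and 7.37 in siSCR and 10.10, 9.75 and 10.13 in siPRMT8 (6.20-fold, log2 2.63, SE 0.361, adjusted p = 0.0011). Prtg, an immunoglobulin superfamily protein of the early neural tube, read 7.21, 7.16 and 6.98 against 9.64, 9.03 and 9.56 (4.89-fold, log2 2.29, SE 0.371). Greb1l (1.56, SE 0.273), Greb1 (1.51, SE 0.284), the kinase gene Pim2 (1.46, SE 0.294) and the relaxin gene Rln1 (2.30-fold, SE 0.179) also rose. The long non-coding RNA Gm32061, outside the naming rule, had the largest rise of the genes above the filter. It read 5.90, 6.0 and 5.91 in siSCR and 9.16, 8.68 and 9.56 in siPRMT8 (log2 3.20, SE 0.519, adjusted p = 0.00212). In D3 it read 6.97, 8.37 and 6.98, and in siPRMT1 6.93, 9.36 and 8.14. The siSCR arrays were the lowest of the 4 groups for Gm32061, Fndc3c1 and Prtg. Against D3 the rises of Fndc3c1 and Prtg were 1.38 and 1.58, and that of Greb1l was 0.93.

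The lower genes of this steady class were of several kinds. Chodl, a membrane lectin, read 6.54, 6.82 and 6.71 in siSCR and 5.30, 5.74 and 5.26 in siPRMT8 (2.39-fold, log2 -1.26, SE 0.129, adjusted p = 0.000425). Tacr1, the receptor for substance P, read 8.34, 8.43 and 8.47 against 7.11, 7.49 and 7.36 (-1.10, SE 0.118). Atp1b1, a subunit of the sodium pump, fell by 0.98 (SE 0.184), the matrix proteins Dcn and Vtn by 1.16 (SE 0.249) and 1.11 (SE 0.176), and Bcl3, a nuclear regulator of NF-kappaB, by 1.06 (SE 0.166). The glucagon precursor gene Gcg fell by 0.98 (SE 0.0908) against siSCR, but lay at 0.08 against D3. Plac8 (-0.96, SE 0.321, adjusted p = 0.0484) passed only without siPRMT8 replicate 2, with an adjusted p of up to 0.174 in the other 5 cases. Jund, a subunit of the AP-1 transcription factor, read 8.64, 8.77 and 8.60 against 7.82, 7.81 and 7.90 (-0.83, SE 0.0668, adjusted p = 0.000206).

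**Figure D4:**
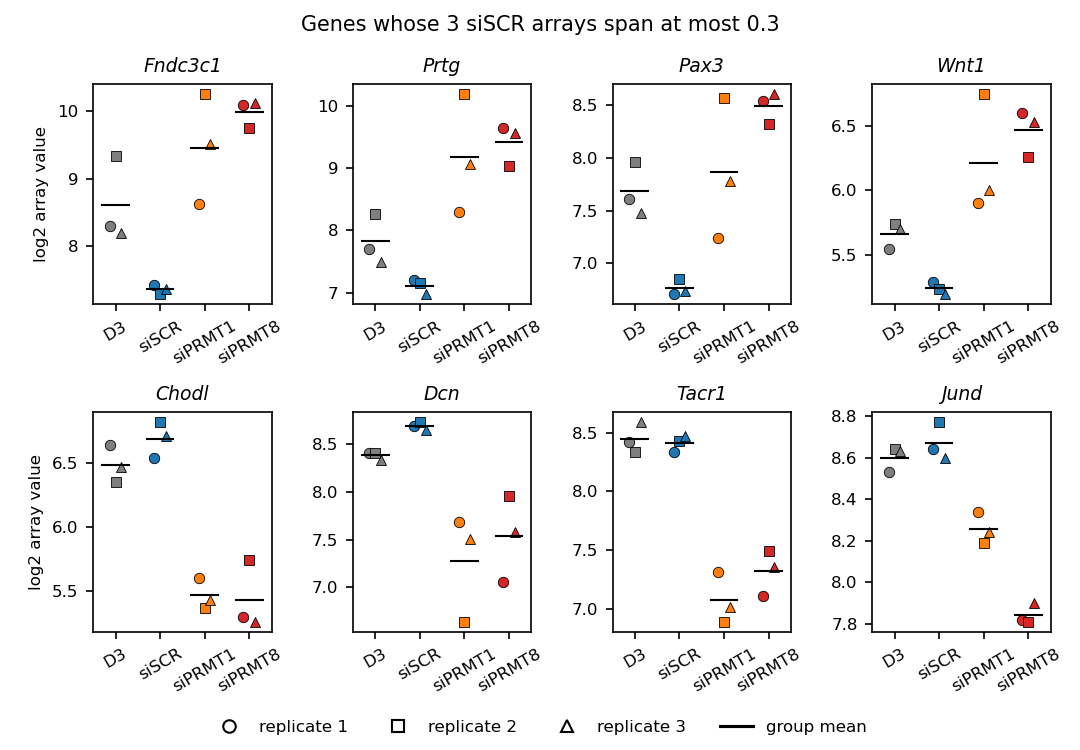
Log2 array values (vertical axis, a separate scale for each gene) of 4 higher and 4 lower genes whose siSCR arrays span at most 0.3, in the 12 arrays by group, with circles, squares and triangles for replicates 1, 2 and 3 and a line at the group mean. The siPRMT8 arrays do not overlap the siSCR arrays for any of the 8 genes. Fndc3c1, Prtg, Pax3 and Wnt1 lie higher in D3 than in siSCR, and the siSCR values of Wnt1 lie under the low-value filter of 5.43.

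Jund was 1 of 7 immediate early genes of 24 that fell, with 0 that rose (median -0.21), a share of 29.2% beside 23.8% of all genes. Fos, the classic marker of recent stimulation, fell by 0.72 (SE 0.113, adjusted p = 0.00179). Both passed whichever array was left out. The 7 were 4 without siPRMT8 replicate 1 or 2 and 3 without siPRMT8 replicate 3 or siSCR replicate 2 or 3.

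Glial and other cell types were read from their marker genes. Of 17 astrocyte genes 10 fell and 2 rose (70.6%, beside 23.8% of all genes, median -0.77). Serpina3n, a protease inhibitor of reactive astrocytes, showed the largest fall of all named genes, from 8.76, 9.86 and 9.90 in siSCR to 6.42, 7.15 and 6.65 in siPRMT8 (6.82-fold, log2 -2.77, SE 0.302, adjusted p = 0.000479). The glial filament Gfap read 7.83, 8.22 and 7.97 against 5.87, 6.35 and 6.15 (-1.88, SE 0.139, adjusted p = 0.000206), and lay 0.68 below D3. The sodium pump subunit Atp1b2 fell by 2.22 (SE 0.221), and the gap junction gene Gja1 rose by 0.77 (SE 0.067). The mean of the 17 genes was 8.37 to 8.71 in the siSCR arrays and 7.62 to 7.95 in the siPRMT8 arrays. The 2 groups did not overlap for 16 of them, set beside 41.8% of all genes. The lower count stayed within 1.5 times of 10 whichever array was left out, and the 2 risers were 1 in each case. Of 13 oligodendrocyte lineage genes 4 fell and 0 rose (30.8%, beside 23.8% of all genes), led by Lhfpl3 (-1.02, SE 0.192) and Olig1 (-0.96, SE 0.178). The 4 were 2 without siSCR replicate 3. Against D3, where 27.7% of all genes passed, 2 rose and 2 fell, and Olig1 was at -0.29 (adjusted p = 0.256).

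Of 23 mesenchymal and matrix genes 9 fell and 3 rose (52.2%, beside 23.8% of all genes, median -0.17). Against D3, where 27.7% of all genes passed, 3 fell and 3 rose. The 9 were 5 without siPRMT8 replicate 1 or siSCR replicate 1, and 3 without siPRMT8 replicate 3, and the 3 risers were 1 without siPRMT8 replicate 1 or 3 and 0 without siSCR replicate 3. The mean of the list was 7.65 to 7.87 in siSCR and 7.44 to 7.58 in siPRMT8. Of 16 neural crest and sensory genes 3 rose and 4 fell (43.8%, beside 23.8% of all genes). Those that fell included the neurotrophin receptors Ntrk2 (-1.51, SE 0.22) and Ntrk3 (-0.85, SE 0.152). These 4 were 2 without siPRMT8 replicate 1 or 3, and the 3 were 1 whichever array was left out. None of 20 endoderm and epithelial genes passed. The neuronal, astrocyte and mesenchymal lists moved in the same comparison, and the part of any of them in the changes of the others was not tested.

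Of 23 regional brain identity genes 4 rose and 1 fell (21.7%, beside 23.8% of all genes), with Otx1 (0.56, SE 0.123) and En2 (0.52, SE 0.114) among the risers. The 4 were 2 without siPRMT8 replicate 1 or siSCR replicate 2. Without siSCR replicate 1 they were 6 and the 1 lower gene was 4, and without each of the other 5 arrays 0 were lower. Of 18 genes of motor and other transmitter neurons 2 rose and 5 fell (38.9%, beside 23.8% of all genes, median -0.08). The 5 were 1 to 3 when siPRMT8 replicate 1 or 3 or siSCR replicate 2 or 3 was left out. Of 15 cholesterol synthesis genes 3 rose, led by Idi1 (0.49, SE 0.0924), and 1 fell, or 26.7%, near the 23.8% of all genes. The 3 were 1 without siPRMT8 replicate 3. For endothelial and myeloid genes 1 of 15 rose and 2 fell, for stress genes 1 of 17 rose and 2 fell, and for interferon genes 1 of 14 rose and 2 fell, shares near or below the 23.8% of all genes. None of these counts exceeded 3 when an array was left out.

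**Figure D5:**
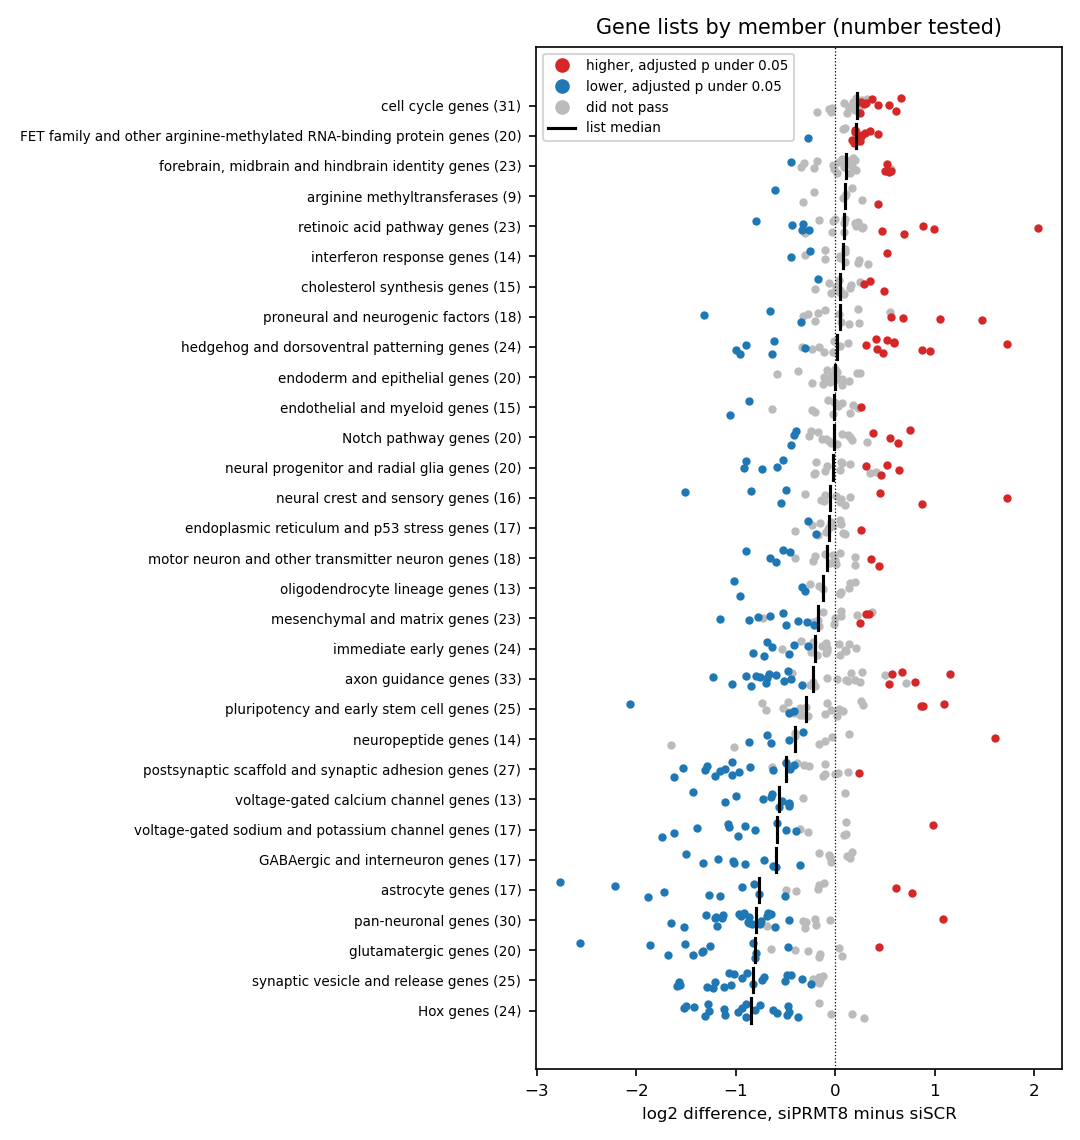
Log2 difference of siPRMT8 minus siSCR (horizontal axis) for each tested member of 31 gene lists (rows, with the number tested in parentheses), in red or blue where the gene passed as higher or lower, in grey where it did not pass, and with a black line at the list median. Hox, synaptic vesicle, glutamatergic, pan-neuronal and astrocyte genes lie lowest with medians of -0.85 to -0.77, and cell cycle and RNA-binding protein genes lie highest at 0.21 and 0.20.

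Other genes with large falls were neuronal or of less settled role. Tmem130, a membrane protein, read 8.35, 9.93 and 9.90 in siSCR and 6.77, 7.57 and 7.07 in siPRMT8 (4.77-fold, log2 -2.25, SE 0.398). The neuronal calcium-binding protein Necab1 fell by 2.08 (SE 0.386) and Elmod1 by 2.05 (SE 0.269). For these 3 genes siSCR replicate 1 lay at least 1 unit below the other siSCR arrays, yet above all siPRMT8 arrays.

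The 2 knockdown lines were also compared directly. The comparisons of both knockdowns with siSCR share the control arrays, so the values are given side by side. Only 23 of 14953 genes passed in siPRMT8 against siPRMT1 (0.154%), 10 higher and 13 lower, and 1824 had an unadjusted p under 0.05. The count was 862 without siPRMT1 replicate 2, and between 2 and 9 without any other array of these groups. Prmt1, which the siPRMT1 line targets, differed most, by 1.49 (SE 0.0885, adjusted p = 2.36e-05). Of the 23 genes, 15 also passed in the same direction against siSCR, where 23.8% of all genes passed in either direction. Both comparisons use the same siPRMT8 arrays, so this overlap is partly built in and is no separate support. The 12 with the largest differences are described here.

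Among them Aldh1a1, which makes retinoic acid, read 6.57, 6.79 and 6.97 in siPRMT8, 5.71, 5.90 and 5.84 in siPRMT1 and 6.37, 5.92 and 5.99 in siSCR, a difference of 0.96 between the knockdowns (SE 0.135, adjusted p = 0.0214). The matrix protein gene Efemp1 read 8.15, 8.16 and 8.37 against 7.65, 7.27 and 7.32 in siPRMT1, a difference of 0.82 (SE 0.121, adjusted p = 0.0319). Clca1 was higher by 0.77, with means of 5.34 in siSCR, 5.32 in D3 and 5.46 in siPRMT1. It passed the low-value filter only through siPRMT8 (6.23), and its adjusted p in the fit of all genes was 0.0253. Pcbd1 (0.49) and the heparan sulphate proteoglycan Sdc2 (0.43) were also higher. Rhoj, a small GTPase, read 6.73, 6.96 and 6.75 in siPRMT8, 7.47, 7.56 and 7.65 in siPRMT1 and 7.42, 7.78 and 7.63 in siSCR, a difference of -0.74 (SE 0.0935, adjusted p = 0.0162). Reep6 (-0.63), the chemerin receptor Cmklr1 (-0.62), the lysine methyltransferase Setd7 (-0.60), Fndc1 (-0.59) and the iron-regulatory aconitase Aco1 (-0.48) were lower. Of the 12, Prmt1 passed in all 9 comparisons that left out 1 array of the 4-group fit, and each of the others missed the threshold without siPRMT8 replicate 3 and without siPRMT1 replicate 3 (adjusted p 0.0678 to 0.209). With the replicate number as a block 7 of the 12 passed. The Hox median differed by 0.00 between the 2 knockdowns, the pan-neuronal median by 0.12, and no member of either list passed.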

How the data were processed

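Biotin-labelled cDNA from total RNA was hybridised to 1-colour whole-transcript arrays, per the labels' protocols. The authors deposited a log2 value for each of 35556 probe sets on 12 arrays, from 0.97 to 13.54. That the scale is log2 follows from this range. How the values were corrected, summarised and normalised is not given in the sources used here. No detection call was used here.

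Of the probe sets, 21789 had 1 symbol in the platform annotation, 1621 several and 12146 none. Symbols were updated by gene ID through RefSeq (GRCm38.p6; 21698 matched), and the brightest probe set stood for each of 19938 genes. Genes in the lowest 25% by mean (below 5.43) were left out.

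limma 3.58.1 in R 4.3.3 (lmFit, eBayes) fitted 4 group means with 8 residual degrees of freedom. SE is limma's moderated standard error. On simulated data for this comparison (14953 genes) limma found 80.9% of 68 genes changed 1.5-fold and 97% of 66 changed 2-fold. It found 100% of 66 changed 4-fold and made 11 false calls. Far more genes passed in the real arrays (3565). How a displaced array such as siSCR replicate 1 alters these rates was not tested. They are therefore not the error rates of siPRMT8 against siSCR.

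The named genes were Prmt8 and Prmt1, the 8 higher and 8 lower with the largest separated changes, up to 3 higher and 3 lower of each of 31 lists, the same 8 and 8 where siSCR spanned at most 0.3, and 6 higher and 6 lower that differed from siPRMT1; predicted and microRNA genes were excepted. The members and lists were chosen with earlier results of these data known. Alternatives were each array left out, D3 or both controls, 2-group fits, other scalings, filters and probe set rules, a robust trend, array weights and a replicate block. Deviations of same-numbered siSCR and siPRMT8 arrays from their group means correlated across genes at 0.19, 0.16 and -0.14. The numbers were not taken as pairs. With 3 arrays per group the deviations depend on each other, so they cannot settle whether the cultures were paired.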

Additional observations from a re-analysis of the deposited data

Results flagged for a closer look

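These genes differed between the 2 knockdown lines in the direct test of siPRMT8 against siPRMT1 (limma, adjusted p under 0.05) and in the same direction from siSCR. Both comparisons use the same siPRMT8 arrays, so the shared direction is no separate support. Values are log2 siPRMT8 minus siPRMT1. Prmt1 differed by 1.49, Aldh1a1 by 0.96, Efemp1 by 0.82, Clca1 by 0.77, Pcbd1 by 0.49 and Sdc2 by 0.43. Rhoj was at -0.74, Reep6 at -0.63, Cmklr1 at -0.62, Setd7 at -0.60, Fndc1 at -0.59 and Aco1 at -0.48. Against siSCR the calls of Pcbd1 (0.27) and Sdc2 (0.20) were lost without siSCR replicate 2 or 3 or siPRMT8 replicate 2 or 3, with an adjusted p of 0.0526 to 0.171. That of Cmklr1 (-0.27) remained only without siSCR replicate 3, and its adjusted p was 0.0508 to 0.146 otherwise.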

How the results depend on the processing

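The 3565 genes of siPRMT8 against siSCR were 1804 to 4107 when 1 array was left out. They were 1996 without siSCR replicate 2, 1861 without siSCR replicate 3, 2243 without siPRMT8 replicate 1 and 1804 without siPRMT8 replicate 3, and 5694 with array weights, a fit that stopped before its convergence tolerance. In all, 1523 genes passed in each of the 6 comparisons with 1 array left out, 601 higher and 922 lower. Prmt8 was at -0.79 to -0.50 when an array was left out, and at -1.04 against D3. With the lowest 50% of genes left out it was not tested. The 23 genes of siPRMT8 against siPRMT1 were 2 to 862 when an array was left out, 2 when only these groups were fitted, 1046 with array weights and 14 with the replicate block. When only the siPRMT8 and siSCR arrays were fitted, 2937 genes passed and Prmt8 was at -0.61 (limma adjusted p = 0.0339). With the replicate block siPRMT8 against siSCR gave 3282 genes and Prmt8 the same -0.61 (adjusted p = 0.0171). The block ended the calls of 10 of the 155 other named genes. Against D3, 114 of those 155 kept their call and direction, 38 no longer passed, and Gcg (0.075), Nhlh1 (-0.091) and Oas2 (0.049) changed sign. Quantile normalisation and median centring each ended 9 of the 155 calls, and leaving out 1 array ended 20 to 49. The median over all genes was 0.01 as deposited, 0.04 after quantile normalisation and 0.07 with median centring. The medians of Notch pathway, neural crest, neural progenitor, endoderm and endothelial genes lay near 0 and changed sign under 1 or both of these scalings. Median centring moves every gene by the same amount, so all list medians rose with the median over all genes. Why the medians of the tested genes differed between arrays was not tested. Without scanner files no signal over background could be set beside any value.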
